A study of Homo sapiens with 26 samples.

Results

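The 34 genes described here are a list of sterol and fatty acid synthesis genes named by symbol, with no threshold on their measured values. They comprise 8 enzymes of the mevalonate pathway, 12 enzymes that turn its product into cholesterol, 4 proteins of the sterol sensor, 2 proteins of sterol transport and 8 enzymes that make or desaturate fatty acids. Each of the 34 symbols was found under its own name in all 3 count tables, which hold 19206 genes for Biowire macrophages, 18771 for digested control macrophages and 21991 for cardiomyocytes. All 34 passed the filter on low counts in every comparison.

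The mevalonate pathway builds isoprenoid units from acetyl-CoA, and a branch of it runs through squalene and lanosterol to cholesterol. In most cells the pathway is set by a sensor in the membrane of the endoplasmic reticulum: SCAP carries the transcription factor SREBP2, the product of SREBF2, to the Golgi for cleavage when sterols are low, and the INSIG proteins hold the complex back when sterols are high. The cleaved factor binds sterol regulatory elements in promoters, while its relative SREBP1 acts mainly on fatty acid synthesis, and oxysterols acting on the LXR receptors raise SREBF1 and MYLIP. Macrophages in tissues take up cholesterol with the cells and lipoproteins they ingest, and heart muscle cells burn fatty acids as their main fuel.

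The study built cardiac microtissues called Biowires, engineered strips of human heart cells, and sequenced total RNA of sorted cells as 26 libraries in 8 groups, with the purpose of asking how macrophages are shaped by the tissue and what they do to its cardiomyocytes. MF stands for macrophages and CM for cardiomyocytes, and FB, which the labels do not spell out, is read here as fibroblasts, whose source they do not give. Wild-type macrophages made from the embryonic stem cell line hES2 were sorted on day 14 from Biowires of MF alone, of FB+MF and of CM+FB+MF (3 libraries each). Control macrophages of the same line and the same 3 cell combinations (3 libraries each) carry the label of digested cells with 40 min of digestion and no day of culture. Wild-type cardiomyocytes of another line, ESI17, were sorted on day 3 from Biowires of CM+FB and of CM+FB+MF (4 libraries each). All groups share the digestion for 40 min with flavopiridol, an inhibitor of transcription, and the sort after staining for CD14 and CD45.

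Library totals were 6983800 to 13665322 counts in Biowire macrophages, 10132651 to 12717157 in digested controls and 12604684 to 30936910 in cardiomyocytes. Levels below are CPM, the counts of a gene scaled to a library total of 1000000. Changes are log2 fold changes with their SE from edgeR's quasi-likelihood test, and a gene is called where its Benjamini-Hochberg adjusted p over all genes tested is under 0.05. A log2 change of -1 is a level lower by a factor of 2. Nothing in the labels says that the replicates are separate cultures, so the p-values measure the spread between these libraries, which may be technical. In such bulk libraries a change in the share of a cell type and a change in RNA per cell cannot be told apart. Summed macrophage markers reached 9476 to 10881 CPM in Biowire MF libraries and 12562 to 13333 CPM in digested MF libraries, and summed cardiomyocyte markers 128830.0 to 146947 CPM in CM+FB cardiomyocytes. Cardiomyocyte markers were also found in the CM+FB+MF macrophages of the Biowires, at 1212 to 2877 CPM against 48.8 to 78.5 CPM in MF and 24.3 to 68.9 CPM in FB+MF, where 6 and 5 of the 14 markers were at 0 in every library. That level was 1.49% of the level in CM+FB cardiomyocytes, and its part in the results was not tested. Other marker sums differed between the Biowire groups too. Macrophage markers were at 13111 to 14337 CPM in FB+MF and 13539 to 14748 CPM in CM+FB+MF, above all MF libraries. Fibroblast markers stood at 521 to 641 CPM in MF, 630.5 to 720.1 CPM in FB+MF and 391 to 469 CPM in CM+FB+MF. Endothelial markers stood at 509 to 588, 418 to 488 and 348 to 382 CPM. Both lists gave such sums in Biowires of MF alone too, so they do not measure fibroblasts or endothelial cells only. In digested MF controls the fibroblast list summed to 273 to 298 CPM, with DCN, LUM, POSTN, THY1 and FBLN1 at 0. The part of these marker sums in the changes of the 34 genes was not tested.

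Promoters are shown because these genes share a sensor whose transcription factor binds a known element. The RefSeq promoter table (GRCh38.p14, 250 bases before to 50 after each gene's start) held 43 promoters for 30 of the 34 genes, and none for ACAT2, FDFT1, SQLE and FASN. The element TCACNCCAC, searched on both strands, was present in 1 of the 43 promoters, that of SREBF2 itself, and in 1.13% of all 35116 promoters of the table. With 1 more free base, TCACNCNAC, it was present in 5 of the 43 promoters (11.6%) and in 2.55% of all promoters. For TCACNCCAC, genes with a match were 1 of 30, 3.33% with a 95% Wilson interval of 0.591% to 16.7%, against 1.39% of all 27305 genes. That interval holds the share of all genes. For the looser TCACNCNAC, genes with a match were 5 of 30, 16.7% with an interval of 7.34% to 33.6%, against 3.13%. CCAAT, the NF-Y box that often stands beside such elements, was present in 27 of the 43 promoters (62.8%) and in 34.6% of all, and the GC box GGGCGG in 37 of the 43 (86.0%) and in 45.0% of all. Among promoters of genes tested in Biowire macrophages these 2 boxes were in 34.1% and 63.7%. These matches describe letters in a window and show no binding, and no match says only that the letters are not there.
The 250 bases before the start of SREBF2 lie at chr22:41832855-41833104 on the plus strand, with the match to TCACNCCAC in capitals. The match begins 133 bases before the start, and a CCAAT box on the reverse strand begins 106 bases before it.
SREBF2: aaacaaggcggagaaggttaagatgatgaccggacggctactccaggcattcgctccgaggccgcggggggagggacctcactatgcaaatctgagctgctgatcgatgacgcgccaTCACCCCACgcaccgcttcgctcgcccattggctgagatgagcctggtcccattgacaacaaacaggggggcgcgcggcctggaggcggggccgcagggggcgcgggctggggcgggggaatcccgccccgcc
The other matches, all on plus strands and in capitals below, fit TCACNCNAC alone and are shown with their neighbouring bases. They lie at chr20:34876362-34876402 for ACSS2, chr11:61815963-61816011 for FADS2, chr1:155308706-155308754 for FDPS and chr1:162790584-162790632 for HSD17B7.
ACSS2: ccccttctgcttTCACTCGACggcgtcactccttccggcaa
FADS2: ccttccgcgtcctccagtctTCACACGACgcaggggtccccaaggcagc
FDPS: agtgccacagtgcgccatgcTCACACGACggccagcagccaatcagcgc
HSD17B7: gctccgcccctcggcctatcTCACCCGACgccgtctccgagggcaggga

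In Biowire macrophages, more of the genes were called lower than higher in each of the 3 comparisons between cell combinations. With fibroblasts, 7 of the 34 genes fell and 0 rose against MF alone, where 6.16% of all genes tested were called (4.03% higher, 2.14% lower). With fibroblasts and cardiomyocytes, 19 fell and 1 rose against MF alone, where 37.6% of all genes were called (17.8% higher, 19.8% lower). Against FB+MF, CM+FB+MF macrophages had 8 genes lower and 2 higher, where 35.5% of all genes were called (16.4% higher, 19.1% lower). These calls are 29.4% of the 34 genes, a share below that of all genes, so nothing particular to the 34 is read from this last count. The median log2 change of the 34 genes was -0.38, -0.65 and -0.26 in these 3 comparisons, beside -0.01, 0.00 and -0.00 for all genes tested. The comparisons share their groups, so they are not independent of each other. At an unadjusted p under 0.05 the 3 comparisons had 16, 26 and 13 of the 34 genes. The share of all genes at that threshold was not taken, so nothing particular to the 34 is read from these counts.

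**Figure D1:**
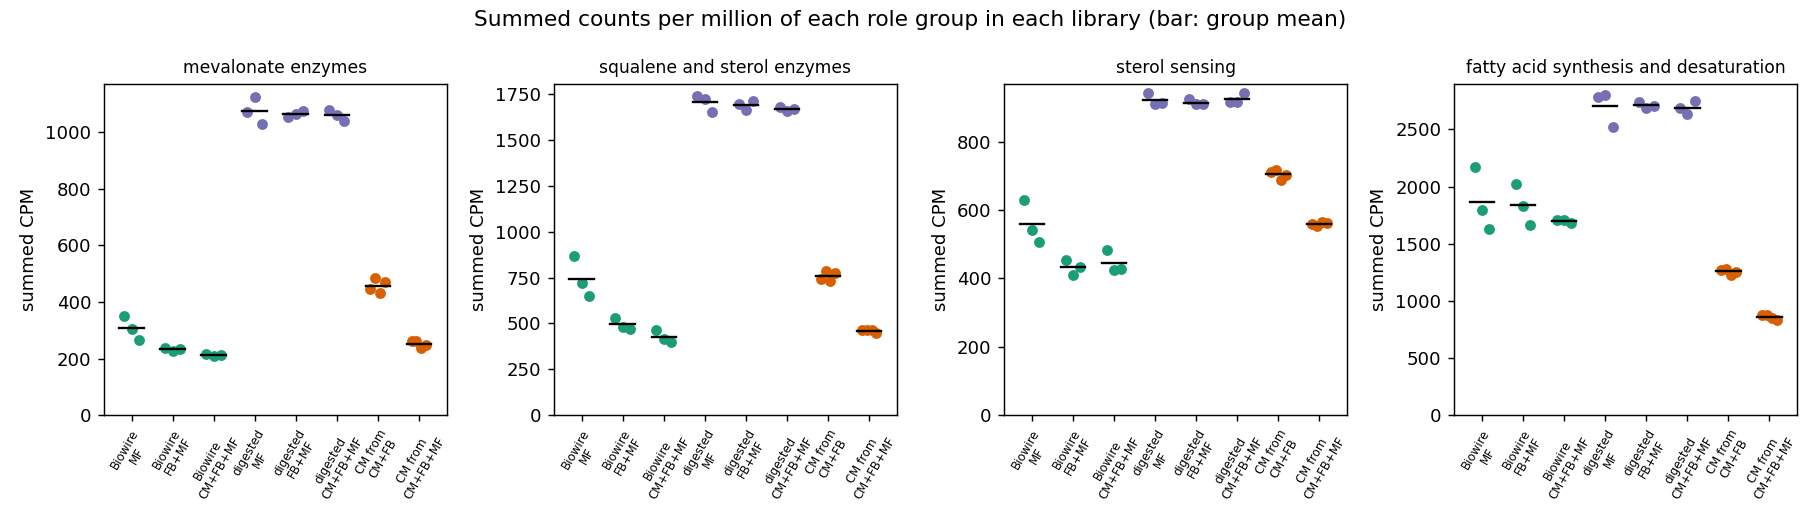
Summed CPM (y axes, from 0) of 4 of the 5 role groups in each of the 26 libraries (points), by group (x axes), with the group mean as a bar. The squalene and sterol enzymes summed to 648 to 865 CPM in Biowire MF, 399 to 466 CPM in Biowire CM+FB+MF and 1653 to 1739 CPM in digested MF libraries.

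In the plot of summed levels, the sum over the squalene and sterol enzymes ranged over 648 to 865 CPM in MF, 471 to 530.1 CPM in FB+MF and 399 to 466 CPM in CM+FB+MF libraries, with no overlap between the 3 groups. The mevalonate enzymes likewise summed to 267 to 349, 228 to 236 and 209 to 217 CPM without overlap. Fatty acid enzymes overlapped, at 1632 to 2171, 1668 to 2023 and 1685 to 1711 CPM, and SCD gave most of the counts in that sum.

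Among the mevalonate enzymes, 1 of 8 fell with fibroblasts and 4 of 8 fell with fibroblasts and cardiomyocytes. ACAT2, the cytosolic thiolase that joins acetyl-CoA at the head of the pathway, measured 40.4, 34.5 and 36.4 CPM in the MF libraries, 30.2, 25.7 and 28.9 CPM in FB+MF and 17.4, 8.95 and 13.9 CPM in CM+FB+MF. The 3 groups stepped down without overlap. ACAT2 changed by -1.47 ± 0.21 against MF (adjusted p = 0.000102) and by -1.11 ± 0.21 against FB+MF (adjusted p = 0.00117), while FB+MF against MF gave -0.36 ± 0.20 (adjusted p = 0.389). Its exons overlap SOD2 and TCP1 on the opposite strand over 34.8% and 12.5% of their bases, and the transcript SOD2-OT1 on that strand over 45.8%, in GENCODE v29, and no source used here says whether reads were counted by strand, so its counts are uncertain. HMGCS1, which makes HMG-CoA, measured 51.9, 44.3 and 38.1 CPM in MF, 27.4, 22.2 and 29.7 CPM in FB+MF and 34.4, 31.1 and 30.6 CPM in CM+FB+MF. The MF libraries were the highest, and FB+MF libraries lay below those of CM+FB+MF. HMGCS1 changed by -0.73 ± 0.17 with fibroblasts (adjusted p = 0.0169) and by -0.49 ± 0.17 with both cell types (adjusted p = 0.0323), and CM+FB+MF minus FB+MF gave 0.24 ± 0.17 (adjusted p = 0.292). Without FB+MF replicate 2 or MF replicate 1 the first call was lost, at -0.61 (adjusted p = 0.0981) and -0.57 (0.0696). The second was lost without CM+FB+MF replicate 2 or 3, at -0.47 (0.0907) and -0.43 (0.111), and without MF replicate 1 or 2, at -0.34 (0.137) and -0.50 (0.0715). AC114947.2 overlaps HMGCS1 on the opposite strand over 19.9% of its exon bases, so its counts carry the same uncertainty.

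MVK, the kinase that phosphorylates mevalonate, measured 21.7, 20.6 and 19.5 CPM in MF, 19.3, 16.4 and 18.04 CPM in FB+MF and 16.4, 13.3 and 11.7 CPM in CM+FB+MF, where the last group met FB+MF at 16.4 CPM. Its change against MF was -0.58 ± 0.19 (adjusted p = 0.0276), which was lost without CM+FB+MF replicate 2 (0.0781) or 3 (0.113) or MF replicate 1 (0.0829) or 2 (0.0723). FDPS, which makes farnesyl diphosphate, measured 73.6, 71.1 and 62.1 CPM in MF, 55.6, 53.7 and 53.8 CPM in FB+MF and 43.6, 56.2 and 49.97 CPM in CM+FB+MF. The MF libraries stood above all others, and FDPS changed by -0.47 ± 0.13 against MF (adjusted p = 0.0101). FDPS has pseudogene copies and overlaps RUSC1-AS1 over 28.9% of its exon bases, so its counts are uncertain too. The other 4 enzymes did not pass the test in any of the 3 comparisons, with values in CM+FB+MF minus MF of -0.48 ± 0.18 for the isomerase IDI1 (adjusted p = 0.0509), -0.49 ± 0.27 for the decarboxylase MVD, -0.54 ± 0.24 for the geranylgeranyl diphosphate synthase GGPS1 and -0.16 ± 0.14 for the next kinase PMVK. Without the filter on low counts IDI1 was called (0.0284). GGPS1 shares 11.3% of its exon bases with TBCE on the same strand.

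Of the 12 squalene and sterol enzymes, 5 fell with fibroblasts, and with both cell types 6 fell and 1 rose. CYP51A1, the demethylase of lanosterol, measured 262, 205 and 178 CPM in MF, 150.3, 124 and 109.6 CPM in FB+MF and 86.5, 76.97 and 73.7 CPM in CM+FB+MF. Each added cell type came with a lower set of libraries, and no group overlapped another. CYP51A1 changed by -0.72 ± 0.17 with fibroblasts (adjusted p = 0.0188), by -1.45 ± 0.17 with both (adjusted p = 1.6e-05) and by -0.73 ± 0.17 between the latter and FB+MF (adjusted p = 0.00428). The first of these calls was lost without FB+MF replicate 2 (0.0908) or 3 (0.102) or MF replicate 1 (0.0637). LSS, which closes the rings of lanosterol, measured 155, 181 and 154 CPM in MF, 108, 108 and 113 CPM in FB+MF and 88.9, 75.2 and 60.6 CPM in CM+FB+MF. Its groups also stepped down without overlap, with changes of -0.54 ± 0.14 (adjusted p = 0.0331), -1.13 ± 0.14 (adjusted p = 2.95e-05) and -0.58 ± 0.14 (adjusted p = 0.00563) in the same order of comparisons. The first was lost without any 1 of the 6 MF and FB+MF libraries (adjusted p 0.0575 to 0.149, the highest without MF replicate 2).

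DHCR7, which reduces 7-dehydrocholesterol, measured 52.99, 31.5 and 34.4 CPM in MF, 21.6, 14.998 and 14.97 CPM in FB+MF and 15.5, 10.4 and 15.6 CPM in CM+FB+MF. All MF libraries lay above the rest, and both other groups overlapped each other. DHCR7 changed by -1.17 ± 0.24 with fibroblasts (adjusted p = 0.0108) and by -1.53 ± 0.25 with both cell types (adjusted p = 0.000333). The first was lost without FB+MF replicate 2 (0.0593) or 3 (0.0563). SC5D, which sets the double bond before that step, measured 64.9, 53.9 and 62.9 CPM in MF, 45.9, 44.2 and 37.5 CPM in FB+MF and 33.004, 31.3 and 41.95 CPM in CM+FB+MF. Only MF stood apart, and SC5D changed by -0.78 ± 0.15 against it (adjusted p = 0.000881). SQLE, the epoxidase of squalene and a slow step of the pathway, measured 91.5, 53.3 and 45.7 CPM in MF, 31.4, 32.996 and 34.5 CPM in FB+MF and 51.998, 37.7 and 32.6 CPM in CM+FB+MF. Its MF libraries were led by replicate 1, and the CM+FB+MF libraries reached into their range. SQLE changed by -0.92 ± 0.25 with fibroblasts (adjusted p = 0.0421) and gave -0.65 ± 0.25 with both cell types (adjusted p = 0.0549). The latter was called with the replicate number as a block (0.0238), by DESeq2 (0.0401) and without the filter on low counts (0.0138). The call with fibroblasts was lost with only the compared groups in the fit (0.0550), without each FB+MF replicate (0.112 to 0.138) and without MF replicate 1 (0.158).

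FDFT1, the squalene synthase, fell, with a change of -0.80 ± 0.18 (adjusted p = 0.00349) with both cell types, and MSMO1, the methyl sterol oxidase, fell as well, with changes of -0.89 ± 0.24 with fibroblasts (adjusted p = 0.0468) and -0.80 ± 0.25 with both (adjusted p = 0.0205). The former call of MSMO1 was lost with only the compared groups in the fit (0.0787), without each FB+MF replicate (0.0504 to 0.183) and without MF replicate 1 (0.193). The latter was lost without CM+FB+MF replicate 2 (0.0558) or 3 (0.0877) or MF replicate 1 (0.115). LBR moved the other way. It is a sterol reductase of the inner nuclear membrane that also binds the lamina, and it measured 34.6, 31.1 and 28.9 CPM in MF, 37.5, 30.2 and 35.7 CPM in FB+MF and 68.2, 64.5 and 62.1 CPM in CM+FB+MF. Every CM+FB+MF library lay far above the other 6, with changes of 1.04 ± 0.14 against MF (adjusted p = 5.41e-05) and 0.87 ± 0.14 against FB+MF (adjusted p = 0.000285). TM7SF2, the other reductase of this step, gave 0.30 ± 0.24 against MF (adjusted p = 0.351). NSDHL, HSD17B7 and EBP, which act between lanosterol and lathosterol, did not pass the test in the Biowire comparisons, with log2 changes between -0.42 and 0.24.

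The 7 calls in FB+MF minus MF were HMGCS1, DHCR7, CYP51A1, LSS, SQLE, MSMO1 and SREBF2, and they depended on the libraries used. The count was 0 without FB+MF replicate 2, 1 without FB+MF replicate 3 or MF replicate 1, 4 without FB+MF replicate 1, 5 without MF replicate 2 and 8 without MF replicate 3. In CM+FB+MF minus MF the count of 20 ranged from 16 without CM+FB+MF replicate 3 to 22 without CM+FB+MF replicate 1. In CM+FB+MF minus FB+MF the count of 10 ranged from 7 to 11.

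**Figure D2:**
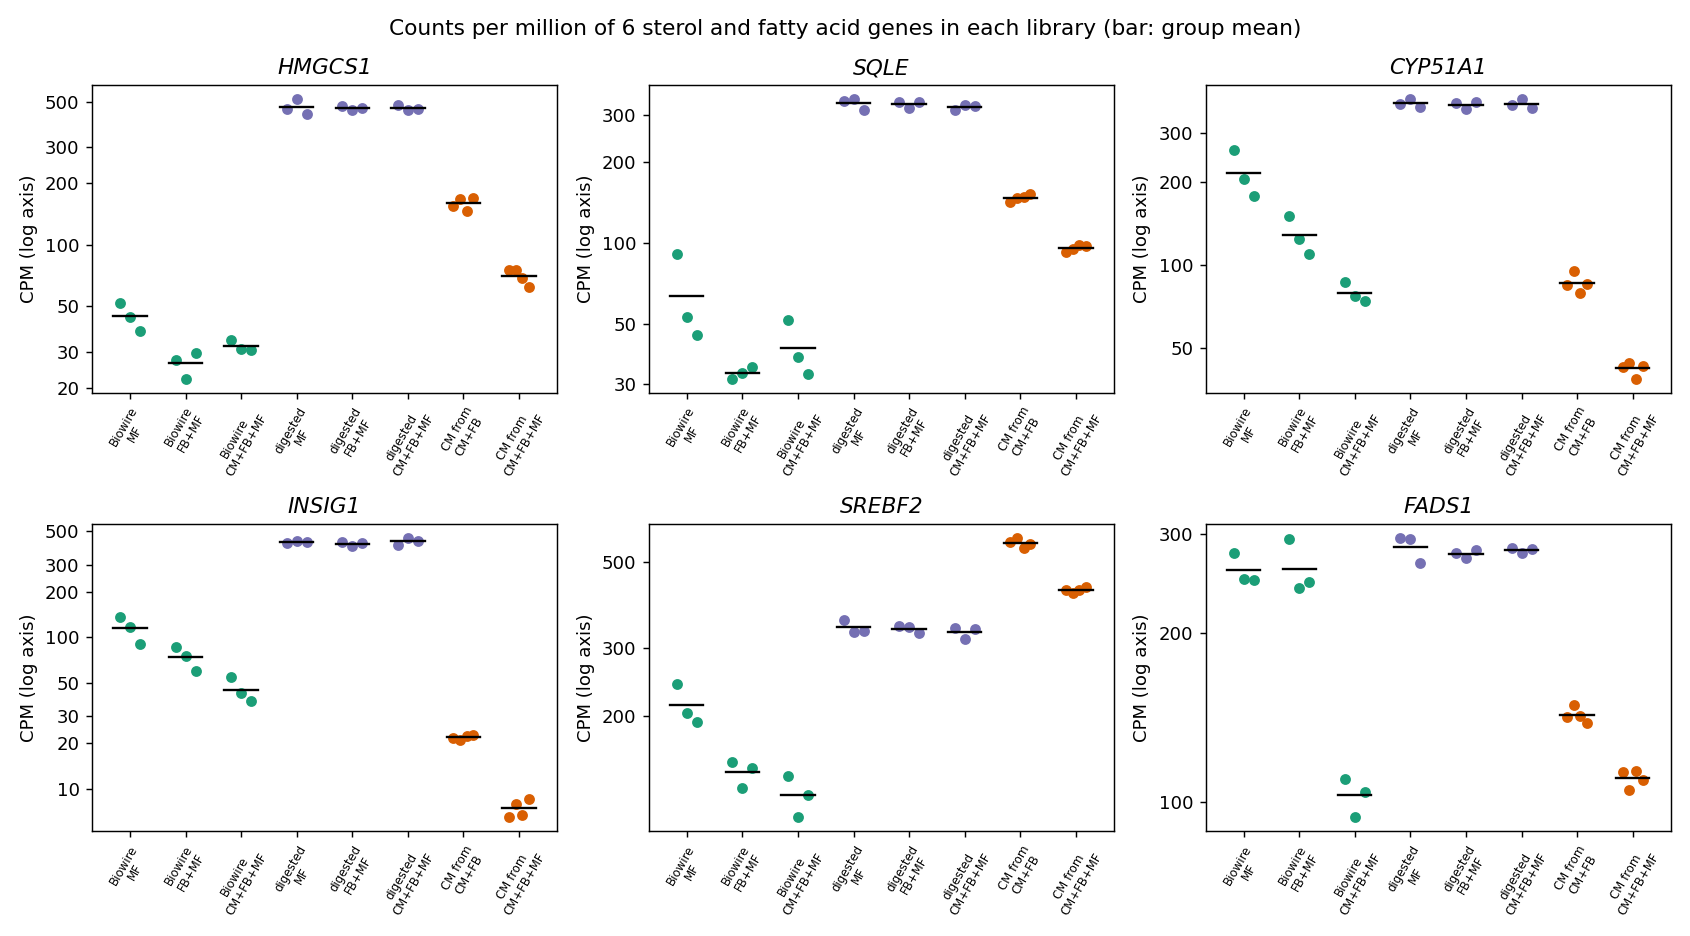
CPM of 6 genes (log y axes) in each library (points) of the 8 groups (x axes), with the group mean as a bar. For HMGCS1 the Biowire macrophages lie between 22.2 and 51.9 CPM, the digested controls between 433 and 515 CPM, and the cardiomyocytes fall from 145 or more to 75.4 or less CPM with macrophages present.

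The sterol sensor split into a pair of genes that fell and a pair that did not. SREBF2, which encodes SREBP2, measured 242, 204 and 193 CPM in MF, 152, 130.1 and 147 CPM in FB+MF and 139.8, 109 and 125 CPM in CM+FB+MF. The MF libraries were highest in the plot of levels by library, and both other groups overlapped. SREBF2 changed by -0.54 ± 0.14 with fibroblasts (adjusted p = 0.0291) and by -0.78 ± 0.14 with both cell types (adjusted p = 0.000515), and gave -0.24 ± 0.14 between the latter and FB+MF (adjusted p = 0.198). The first was lost without FB+MF replicate 2 (0.155) or 3 (0.0929) or MF replicate 1 (0.106) or 2 (0.0611). INSIG1, a retention protein that is itself a target of SREBP2, measured 135, 117 and 90.4 CPM in MF, 85.9, 74.6 and 59.9 CPM in FB+MF and 54.7, 42.8 and 37.7 CPM in CM+FB+MF. The groups formed 3 steps without overlap. INSIG1 changed by -1.35 ± 0.20 against MF (adjusted p = 0.000118) and by -0.74 ± 0.20 against FB+MF (adjusted p = 0.01), the latter lost without CM+FB+MF replicate 3 (0.0622) or FB+MF replicate 1 (0.0509). With fibroblasts alone it gave -0.61 ± 0.19 (adjusted p = 0.0872). There INSIG1 was called by DESeq2 (0.0298), without the filter on low counts (0.0279), with the replicate number as a block (0.00449) and without MF replicate 3 (0.0440).

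INSIG2, the paralog that SREBP2 does not induce, measured 16.3, 18.002 and 14.4 CPM in MF, 15.05, 15.3 and 17.9 CPM in FB+MF and 17.5, 17.7 and 14.6 CPM in CM+FB+MF. The 3 groups overlapped fully, and the change against MF was 0.03 ± 0.19 (adjusted p = 0.929). SCAP, the escort of SREBP2, measured 236, 204 and 209 CPM in MF, 202, 189.9 and 210.1 CPM in FB+MF and 272, 255 and 251 CPM in CM+FB+MF. Its CM+FB+MF libraries were the highest, with 0.33 ± 0.11 against FB+MF (adjusted p = 0.0257) and 0.26 ± 0.11 against MF (adjusted p = 0.0719). The first value lost its call without the filter on low counts (0.0592) and without each of 5 libraries (adjusted p up to 0.130, without FB+MF replicate 2), and the second gained one by DESeq2 (0.0461) or without MF replicate 1 (0.0210).

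Of the sterol transport genes, STARD4, a cytosolic carrier of cholesterol, measured 34.6, 46.6 and 32.5 CPM in MF, 30.5, 21.3 and 25.3 CPM in FB+MF and 15.4, 23.4 and 19.3 CPM in CM+FB+MF. The MF libraries lay above all others, and STARD4 changed by -0.98 ± 0.20 against them (adjusted p = 0.00171). TMEM97, the sigma-2 receptor, gave -0.65 ± 0.26 in the same comparison (adjusted p = 0.0616). IFT20 overlaps it on the opposite strand over 11.9% of its exon bases.

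Of the 8 fatty acid genes, 0 were called with fibroblasts alone in the main edgeR fit, 6 fell in CM+FB+MF against MF and 4 fell against FB+MF. FADS1, the delta-5 desaturase of polyunsaturated fatty acids, measured 278, 249 and 248 CPM in MF, 293, 239.8 and 246 CPM in FB+MF and 109.8, 93.8 and 104 CPM in CM+FB+MF. MF and FB+MF libraries overlapped, and all 3 CM+FB+MF libraries lay far below them. FADS1 changed by -1.34 ± 0.12 against MF (adjusted p = 1.47e-06) and by -1.38 ± 0.12 against FB+MF (adjusted p = 1.81e-06), while FB+MF minus MF gave 0.04 ± 0.12 (adjusted p = 0.916). FADS2, its delta-6 partner and neighbour, measured 110.5, 87.5 and 59.3 CPM in MF, 81.3, 55.7 and 51.9 CPM in FB+MF and 48.5, 24.99 and 23.6 CPM in CM+FB+MF. The CM+FB+MF libraries were lowest, and those of MF and FB+MF overlapped. FADS2 changed by -1.41 ± 0.30 against MF (adjusted p = 0.0021) and by -0.99 ± 0.30 against FB+MF (adjusted p = 0.0194). The last call was lost by DESeq2 (0.0621) and without CM+FB+MF replicate 2 (0.0893) or 3 (0.101) or FB+MF replicate 1 (0.0924). FADS1 and FADS2 overlap on opposite strands over 1.80% and 2.85% of their exon bases.

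FASN, the fatty acid synthase, measured 218, 170.2 and 156 CPM in MF, 135, 123 and 121 CPM in FB+MF and 121, 78.96 and 74.7 CPM in CM+FB+MF. The MF libraries were above all others, and CM+FB+MF replicate 1 came close to the FB+MF libraries. FASN changed by -0.99 ± 0.19 against MF (adjusted p = 0.00102). Against FB+MF it missed the threshold (adjusted p = 0.0551). There it was called by DESeq2 (0.0442), without the filter on low counts (0.0149), with only the compared groups (0.0374) and with the replicate number as a block (0.00506). With fibroblasts alone FASN was called with that block (0.0386) and not in the main fit (0.166). ACACA, the acetyl-CoA carboxylase that feeds it, measured 69.1, 57.8 and 65.8 CPM in MF, 50.2, 64.2 and 58.6 CPM in FB+MF and 30.3, 42.03 and 42.8 CPM in CM+FB+MF. The last group lay below both others, with -0.75 ± 0.15 against MF (adjusted p = 0.00128) and -0.63 ± 0.15 against FB+MF (adjusted p = 0.00505). ACSS2, which makes acetyl-CoA from acetate, measured 96.2, 95.4 and 112 CPM in MF, 85.1, 75.8 and 79.7 CPM in FB+MF and 54.96, 56.5 and 66.3 CPM in CM+FB+MF. Its groups stepped down without overlap, with -0.78 ± 0.11 against MF (adjusted p = 0.000105) and -0.48 ± 0.11 against FB+MF (adjusted p = 0.00475).

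ELOVL6, an elongase of saturated fatty acids, was near the limit of detection in macrophages, at 1.10 to 4.18 CPM in MF and 0.430 to 0.674 CPM in CM+FB+MF. Its change of -2.18 ± 0.70 (adjusted p = 0.0246) was lost without MF replicate 3 (0.156) or CM+FB+MF replicate 2 (0.0742) or 3 (0.0775). SCD, the stearoyl-CoA desaturase, measured 1275, 1012 and 858 CPM in MF, 1237, 1144 and 975 CPM in FB+MF and 1214, 1289 and 1263 CPM in CM+FB+MF. All 3 groups overlapped, and SCD gave 0.25 ± 0.15 against MF (adjusted p = 0.21). ACLY, which makes cytosolic acetyl-CoA from citrate, gave -0.06 ± 0.11 (adjusted p = 0.72).

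In digested control macrophages no difference between the 3 combinations was called for these transcripts. Of the 34 genes, 0 were called in FB+MF minus MF, in CM+FB+MF minus MF and in CM+FB+MF minus FB+MF, where edgeR called 1.60%, 2.69% and 0.239% of all genes, every one of them higher. DESeq2 called 0 as well, and at an unadjusted p under 0.05 there were 0, 1 and 1 of the 34, with no share of all genes taken there. The log2 changes of the 34 genes ran from -0.18 to 0.28, from -0.14 to 0.42 and from -0.18 to 0.34. CYP51A1, for example, measured 383, 399 and 373 CPM in MF, 387, 366 and 389 CPM in FB+MF and 381, 399.5 and 370.1 CPM in CM+FB+MF controls, which overlapped. Fibroblast markers summed to 273 to 298 CPM in MF controls and 992 to 3574 CPM in CM+FB+MF controls, and cardiomyocyte markers to 30.6 to 44.7 and 222 to 399 CPM.

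The difference between the Biowire and the digested change was tested as an interaction over all 18 macrophage libraries. It was called for 3 of the 34 genes in FB+MF minus MF, all lower in Biowires, where 4.84% of all genes were called (2.72% higher, 2.12% lower), for 21 in CM+FB+MF minus MF, 20 lower and 1 higher, where 31.2% were called (14.4% higher, 16.8% lower), and for 8 in CM+FB+MF minus FB+MF, 7 lower and 1 higher, where 28.4% were called (13.2% higher, 15.1% lower). The 8 calls in CM+FB+MF minus FB+MF are 23.5% of the 34 genes, a share below that of all genes. FADS1 had the smallest p in that comparison, with -1.40 ± 0.14 (adjusted p = 2.06e-07), and LBR was the gene that was higher, with 1.03 ± 0.16 and 0.91 ± 0.16. For the first comparison the count was 1 without Biowire FB+MF replicate 2 or digested MF replicate 3, and 5 without Biowire MF replicate 2 or 3.

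Set beside the digested controls, Biowire macrophages held far fewer sterol synthesis transcripts. Culture and count table cannot be told apart in this comparison, because Biowire libraries and controls were deposited in separate tables, and the controls' day is not given. Of the 34 genes, 27 were lower and 3 higher in MF, where 46.0% of all genes were called (23.2% higher, 22.8% lower). In FB+MF 27 were lower and 2 higher, where 47.1% were called (23.1% higher, 24.0% lower). In CM+FB+MF 30 were lower and 3 higher, where 50.5% were called (24.4% higher, 26.1% lower). The medians were -1.02, -1.44 and -1.74, beside 0.05, 0.02 and 0.02 for all genes. These comparisons share no libraries with each other, but they come from a common fit of 18 libraries. They also share the difference in culture and count table. HMGCS1 measured 459, 515 and 433 CPM in the MF controls, 473, 455 and 465 CPM in FB+MF controls and 482, 453 and 459 CPM in CM+FB+MF controls. Every control library was many times above every Biowire library, and the changes were -3.58 ± 0.13, -4.28 ± 0.13 and -4.04 ± 0.13 (adjusted p = 4.15e-14, 5.28e-15 and 1.25e-14).

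Of the 8 mevalonate enzymes, 6 were lower in all 3 pairs, and PMVK and GGPS1 were not. IDI1 measured 187, 201 and 199.6 CPM in MF controls against 56.3, 47.1 and 35.1 CPM in Biowire MF, without overlap, and its changes were -2.28 ± 0.15, -2.70 ± 0.15 and -2.75 ± 0.15. PMVK gave -0.19 ± 0.10, -0.14 ± 0.10 and -0.28 ± 0.10, of which the last was called (adjusted p = 0.0276) but not with the compared groups alone in the fit (0.102) or without Biowire CM+FB+MF replicate 1 (0.113) or digested CM+FB+MF replicate 2 (0.0971). GGPS1 was higher in Biowire MF by 0.66 ± 0.20 (adjusted p = 0.00925), a call lost without Biowire MF replicate 1 (0.0569), and gave 0.33 ± 0.20 and -0.29 ± 0.20 in the other pairs.

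Of the 12 squalene and sterol enzymes, 11, 10 and 11 were lower. SQLE measured 339, 344 and 312 CPM in MF controls, 334, 317 and 334 CPM in FB+MF controls and 312, 326 and 325 CPM in CM+FB+MF controls, all far above the Biowire libraries. Its changes were -2.57 ± 0.20, -3.47 ± 0.21 and -3.16 ± 0.21 (adjusted p = 2.3e-09, 6.06e-11 and 1.95e-10). MSMO1 changed by -2.21 ± 0.19, -2.99 ± 0.19 and -2.96 ± 0.20. NSDHL, which did not change between Biowire tissues by call, measured 42.7, 43.1 and 40.5 CPM in MF controls against 15.1, 15.002 and 11.2 CPM in Biowire MF, without overlap, with changes of -1.81 ± 0.14, -1.79 ± 0.14 and -1.57 ± 0.14. LBR was called in CM+FB+MF alone, where it was higher in the Biowire by 0.81 ± 0.11 (adjusted p = 6.93e-06).

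INSIG1 measured 419, 431 and 424 CPM in MF controls, 422, 402 and 419.8 CPM in FB+MF controls and 407, 453 and 433 CPM in CM+FB+MF controls. The lowest of these is well above the highest Biowire library, and the changes were -2.09 ± 0.16, -2.64 ± 0.16 and -3.44 ± 0.17 (adjusted p = 1.57e-09, 7.45e-11 and 3.29e-12). SREBF2 measured 355, 331 and 332 CPM in MF controls, 342, 341 and 328 CPM in FB+MF controls and 339, 316 and 337 CPM in CM+FB+MF controls, also above every Biowire library. It changed by -0.86 ± 0.11, -1.38 ± 0.11 and -1.59 ± 0.11. INSIG2 and SCAP ran opposite to them. INSIG2 measured 9.05, 7.23 and 9.28 CPM in MF controls, 10.3, 10.1 and 10.6 CPM in FB+MF controls and 9.67, 8.23 and 9.35 CPM in CM+FB+MF controls, below all Biowire libraries, with 0.74 ± 0.15, 0.48 ± 0.15 and 0.69 ± 0.16 (adjusted p = 0.000534, 0.013 and 0.00109). SCAP measured 159, 140.2 and 147 CPM in MF controls, 151, 157 and 150.2 CPM in FB+MF controls and 160.2, 138 and 163 CPM in CM+FB+MF controls, with 0.35 ± 0.09, 0.24 ± 0.09 and 0.57 ± 0.09. In FB+MF the call of INSIG2 was lost without Biowire FB+MF replicate 3 (0.0592), and that of SCAP without any of 5 libraries (up to 0.0938, without Biowire FB+MF replicate 3).

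Among fatty acid genes, FASN measured 499.7, 435 and 385 CPM in MF controls, 471, 488 and 456 CPM in FB+MF controls and 495, 369 and 483 CPM in CM+FB+MF controls, all above the Biowire libraries, and changed by -1.47 ± 0.17, -2.05 ± 0.17 and -2.47 ± 0.18. SCD, at 1367 to 1542 CPM in MF controls, was lower in Biowires, with changes of -0.66 ± 0.12, -0.51 ± 0.12 and -0.39 ± 0.12, the last lost without digested CM+FB+MF replicate 2 (0.0533). FADS1 was lower than in the controls in MF and FB+MF, with -0.33 ± 0.09 and -0.24 ± 0.09 (adjusted p = 0.00694 and 0.045), and in CM+FB+MF, with -1.64 ± 0.10 (adjusted p = 4.62e-11). The FB+MF call of FADS1 was lost with RLE size factors (0.0554) and without each of 5 libraries (up to 0.178, without Biowire FB+MF replicate 2). ACSS2 gave 0.06 ± 0.08 in MF (adjusted p = 0.592), -0.23 ± 0.08 in FB+MF (adjusted p = 0.0255, lost without each of 5 libraries, up to 0.103 without Biowire FB+MF replicate 2) and -0.66 ± 0.08 in CM+FB+MF (adjusted p = 2.15e-06). ACLY and FADS2 were lower in all 3 pairs, with changes in MF of -0.93 and -1.02. Summed proliferation markers were 51.3 to 51.7 CPM in MF controls and 12.8 to 14.4 CPM in Biowire MF, and their part in these differences was not tested.

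**Figure D3:**
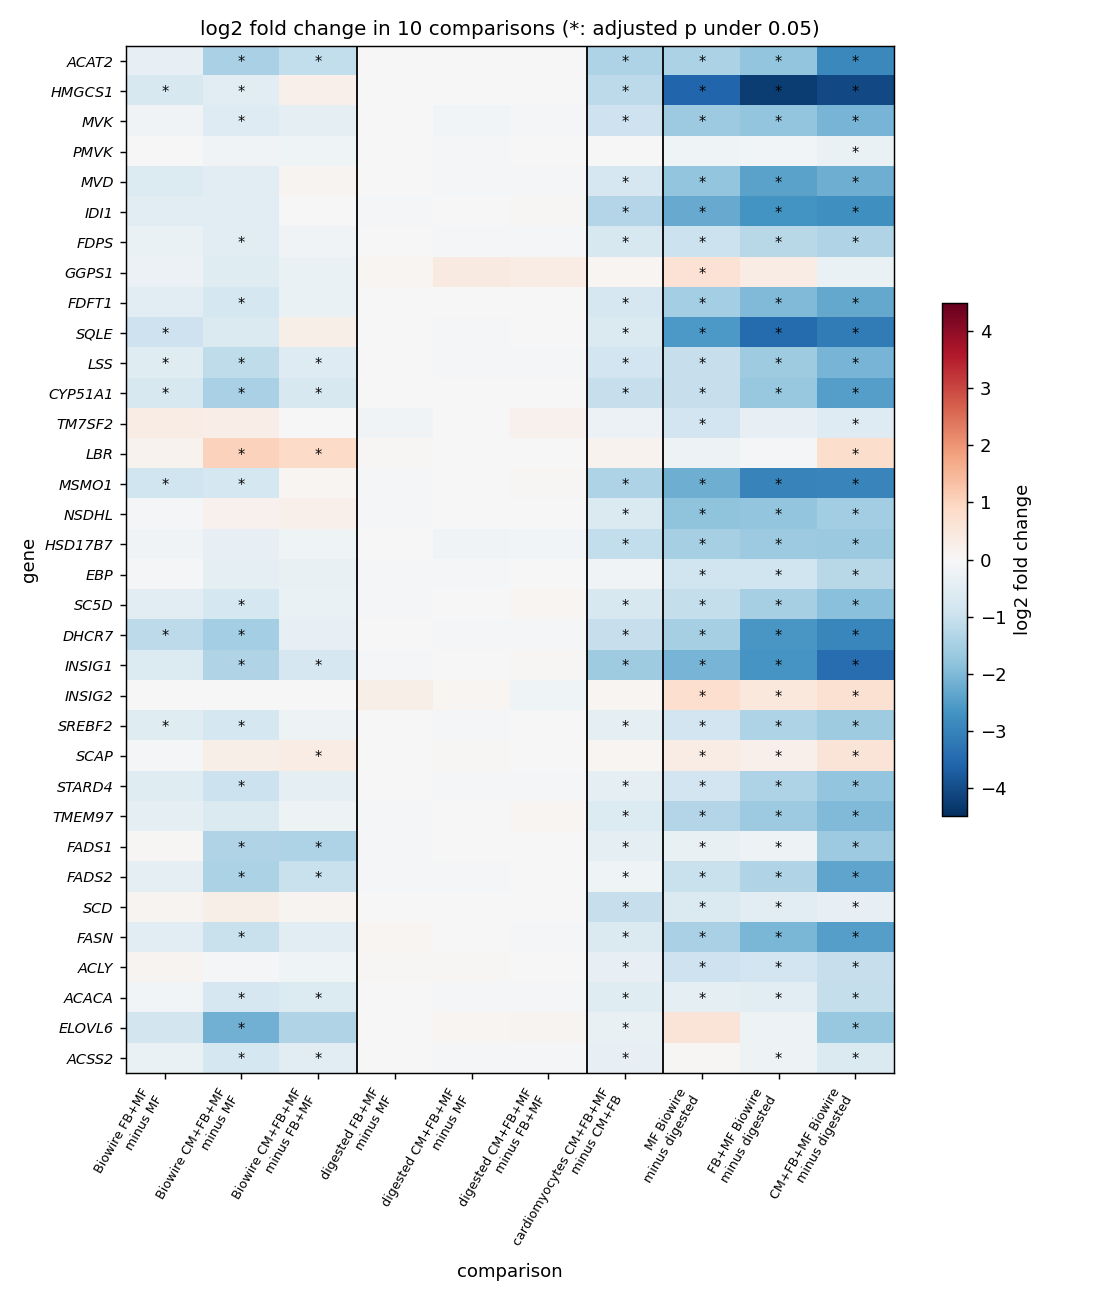
Log2 fold changes (colour) of the 34 genes (y axis, in the order of their roles) in 10 comparisons (x axis), with an asterisk where the adjusted p was under 0.05. The 3 digested comparisons lie between -0.18 and 0.42, the cardiomyocyte column holds 27 falls, and the Biowire minus digested columns reach -4.28 for HMGCS1.

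In cardiomyocytes, sorted on day 3, most of the same genes were lower where macrophages were in the tissue. Of the 34 genes, 27 fell and 0 rose in CM+FB+MF against CM+FB, where 12.7% of all genes tested were called (6.79% higher, 5.88% lower). The median change of the 34 was -0.64, beside 0.02 for all genes. The count of 27 was the same by DESeq2 and in each fit without 1 library. The library of CM+FB+MF replicate 4 was the shallowest, and the count held without it. Macrophage markers summed to 29.1 to 66.6 CPM with macrophages in the tissue and 6.21 to 8.48 CPM without, 0.314% of their level in Biowire CM+FB+MF macrophages. Fibroblast markers overlapped, at 4233 to 7684 and 3839 to 6542 CPM. Proliferation markers were higher, at 242 to 278 against 116 to 132 CPM, and the part of any of these in the falls was not tested.

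Of the 8 mevalonate enzymes, 6 fell. HMGCS1 measured 155, 167, 145 and 168 CPM in the CM+FB libraries and 75.4, 74.97, 69.1 and 62.4 CPM in CM+FB+MF. Every library with macrophages lay far below every library without, a change of -1.19 ± 0.07 (adjusted p = 1.72e-07). IDI1 measured 41.9, 43.8, 36.02 and 41.6 CPM in CM+FB and 15.2, 18.7, 16.7 and 15.2 CPM in CM+FB+MF, a change of -1.33 ± 0.09 (adjusted p = 5.55e-07). MVK measured 55.3, 51.3, 51.7 and 51.1 CPM in CM+FB and 29.4, 29.8, 26.4 and 26.3 CPM in CM+FB+MF, a change of -0.92 ± 0.07 (adjusted p = 1.48e-06). ACAT2, with the overlap named above, measured 22.9, 26.8, 20.5 and 25.4 CPM in CM+FB and 9.06, 9.75, 7.50 and 10.6 CPM in CM+FB+MF, a change of -1.40 ± 0.13 (adjusted p = 7.92e-06). All of these enzymes act before farnesyl diphosphate. FDPS and MVD fell too, with changes of -0.73 ± 0.07 and -0.75 ± 0.08, while PMVK and GGPS1 gave 0.01 ± 0.11 and 0.08 ± 0.09 and were not called.

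Of the 12 squalene and sterol enzymes, 9 fell. DHCR7 measured 44.4, 50.1, 46.8 and 48.1 CPM in CM+FB and 23.5, 24.03, 24.4 and 20.9 CPM in CM+FB+MF. Its groups were far apart, with a change of -1.04 ± 0.07 (adjusted p = 5.24e-07). CYP51A1 measured 84.7, 94.8, 79.1 and 85.5 CPM in CM+FB and 42.8, 44.1, 38.8 and 43.2 CPM in CM+FB+MF, a change of -1.05 ± 0.07 (adjusted p = 5.94e-07). LSS measured 141, 138, 152 and 149 CPM in CM+FB and 76.2, 88.04, 83.3 and 74.2 CPM in CM+FB+MF, a change of -0.87 ± 0.06 (adjusted p = 9.01e-07). Both act on the lanosterol ring system, and neither had overlapping groups. SQLE measured 142, 148, 149 and 153 CPM in CM+FB and 92.8, 94.9, 98.4 and 97.6 CPM in CM+FB+MF, with a change of -0.64 ± 0.05 (adjusted p = 2.71e-06). The other falls were -1.37 for MSMO1, -1.09 for HSD17B7, -0.77 for FDFT1, -0.71 for SC5D and -0.64 for NSDHL. HSD17B7 has pseudogene copies, so its counts are uncertain. TM7SF2, EBP and LBR were not called, at -0.27 ± 0.10, -0.16 ± 0.08 and 0.16 ± 0.09.

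The sensor genes split in the cardiomyocytes as in the macrophages. INSIG1 measured 21.7, 21.1, 22.3 and 22.6 CPM in CM+FB and 6.47, 7.97, 6.72 and 8.57 CPM in CM+FB+MF. Its groups were well separated, and its change of -1.59 ± 0.11 (adjusted p = 7.48e-07) was the lowest of the 34. SREBF2 measured 566, 579, 544 and 559 CPM in CM+FB and 425, 417, 423 and 432 CPM in CM+FB+MF, a smaller but equally separated change of -0.42 ± 0.05 (adjusted p = 5.59e-05). INSIG2 measured 18.2, 17.5, 17.4 and 14.5 CPM in CM+FB and 14.8, 17.05, 19.01 and 21.4 CPM in CM+FB+MF, which overlapped, with 0.07 ± 0.12 (adjusted p = 0.788). SCAP measured 104, 99.3, 104 and 106 CPM in CM+FB and 113, 112, 116 and 101 CPM in CM+FB+MF, which overlapped as well, with 0.08 ± 0.05 (adjusted p = 0.421). The carrier STARD4 fell from 106, 94.8, 96.8 and 99.1 CPM to 68.7, 85.2, 79.9 and 69.8 CPM, a change of -0.40 ± 0.07 (adjusted p = 0.00209). TMEM97 fell from 13.1, 14.6, 14.2 and 12.9 CPM to 9.94, 10.4, 8.89 and 6.58 CPM, a change of -0.62 ± 0.13 (adjusted p = 0.00582).

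All 8 fatty acid genes fell in cardiomyocytes. SCD, which overlapped between the Biowire macrophage groups, measured 269, 280.1, 256 and 255 CPM in CM+FB and 125, 125, 131 and 141 CPM in CM+FB+MF cardiomyocytes. All libraries with macrophages were far below those without, a change of -1.04 ± 0.06 (adjusted p = 2.36e-07). FASN measured 294, 269, 292 and 298 CPM in CM+FB and 189, 195, 186 and 166 CPM in CM+FB+MF, a change of -0.66 ± 0.06 (adjusted p = 5.92e-06). ACACA measured 150.2, 161, 144 and 149.7 CPM in CM+FB and 105, 116, 102 and 98.3 CPM in CM+FB+MF, a change of -0.54 ± 0.06 (adjusted p = 3.75e-05). These 2 enzymes make palmitate from acetyl-CoA. FADS1 measured 141, 148, 142 and 138 CPM in CM+FB and 113, 105, 113 and 109 CPM in CM+FB+MF, a change of -0.39 ± 0.05 (adjusted p = 0.000199). ACLY, ACSS2, ELOVL6 and FADS2 fell with log2 changes of -0.39, -0.36, -0.32 and -0.21 on the log2 scale.

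**Figure D4:**
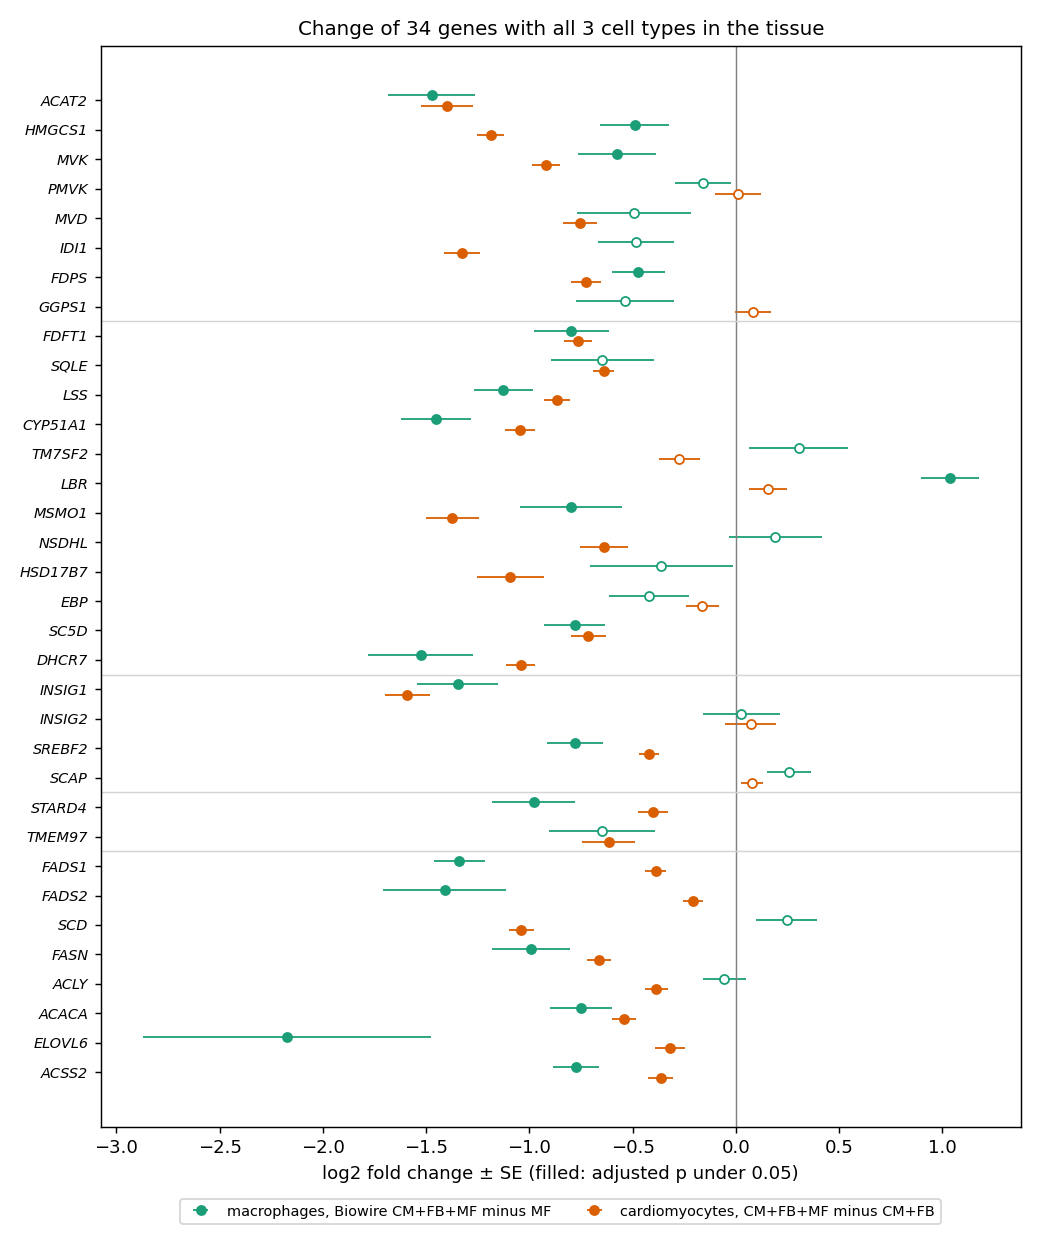
Log2 fold change with its SE (x axis) of the 34 genes (y axis, by role, separated by lines) in Biowire CM+FB+MF minus MF macrophages (green) and in CM+FB+MF minus CM+FB cardiomyocytes (orange), filled where the adjusted p was under 0.05. LBR lies at 1.04 in macrophages and 0.16 in cardiomyocytes, and SCD at 0.25 and -1.04.

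The macrophage and cardiomyocyte comparisons use separate libraries, lines and days, and their values stand side by side in the plot of both changes. The 19 genes that fell in CM+FB+MF macrophages against MF were all among the 27 that fell in cardiomyocytes, which is 100% of the first list and 70.4% of the second. Because 79.4% of the 34 genes fell in cardiomyocytes, a large overlap was likely for any 19 of them. How many of all genes fell in both comparisons was not counted. The 8 genes called in cardiomyocytes and not in macrophages were MVD, IDI1, SQLE, NSDHL, HSD17B7, TMEM97, SCD and ACLY, and no test of the difference between the cell types was made. PMVK, GGPS1, TM7SF2, LBR, EBP, INSIG2 and SCAP fell in neither. Over the 34 genes the changes had a Pearson correlation of 0.38 and a Spearman correlation of 0.37, as a description across genes, which are not independent. The sizes differed by gene: HMGCS1 gave -0.49 in macrophages and -1.19 in cardiomyocytes, and FADS1 -1.34 and -0.39.

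Further genes of the same pathways were taken from 4 lists. Their counts stand beside 6.16% of all genes called in FB+MF minus MF, 37.6% in CM+FB+MF minus MF (17.8% higher, 19.8% lower) and 12.7% in cardiomyocytes, and nothing particular to a list is read from them. Of 9 genes of SREBP processing and sterol-regulated degradation, 2 rose in FB+MF macrophages against MF, and in CM+FB+MF against MF 3 rose and 2 fell. SREBF1, which encodes SREBP1, had 28.1 ± 7.77 CPM (SD, n = 3) in MF, 67.3 ± 15.7 CPM in FB+MF and 101 ± 11.8 CPM in CM+FB+MF. It rose by 1.29 ± 0.21, by 1.84 ± 0.21 and, from FB+MF to CM+FB+MF, by 0.55 ± 0.20 (adjusted p = 0.00176, 1.35e-05 and 0.0493), opposite in sign to SREBF2. MYLIP, a ubiquitin ligase that removes lipoprotein receptors from the cell surface, rose by 1.40 ± 0.39, 3.30 ± 0.39 and 1.90 ± 0.36 (adjusted p = 0.0476, 1.62e-05 and 0.00102), from 1.20 ± 0.445 CPM in MF to 12.3 ± 1.68 CPM in CM+FB+MF. ERLIN2, which takes part in degrading sterol-sensing proteins, rose by 0.69 ± 0.16 against MF. In cardiomyocytes the same pair, SREBF1 and MYLIP, rose by 0.81 ± 0.13 and 0.85 ± 0.12 (adjusted p = 0.00078 and 0.000436), and they were the genes of this list that were called there. Against digested controls SREBF1 was lower in Biowire MF, with -2.21 ± 0.18, and in FB+MF, with -0.94 ± 0.17, and gave -0.38 ± 0.16 in CM+FB+MF (adjusted p = 0.0587).

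Of 10 measured genes of sterol esterification and trafficking, 1 rose and 3 fell in CM+FB+MF macrophages against MF, where 37.6% of all genes were called. SOAT1, which esterifies cholesterol for storage, had 507 ± 26.1 CPM in MF, 303 ± 29.7 CPM in FB+MF and 86.7 ± 3.40 CPM in CM+FB+MF, and fell, with changes of -0.71 ± 0.11, -2.55 ± 0.11 and -1.85 ± 0.11 (adjusted p = 0.000951, 2e-09 and 6.54e-08). GRAMD1B, which moves cholesterol from the plasma membrane to the endoplasmic reticulum, changed by -1.23 ± 0.18 against MF. NCEH1, a cholesteryl ester hydrolase, rose by 0.56 ± 0.09 with fibroblasts and fell with both cell types, with a change of -0.59 ± 0.10. In cardiomyocytes 2 of 9 rose and 1 fell: NCEH1 by 0.58 ± 0.10, the lysosomal lipase LIPA by 0.88 ± 0.23 from 2.15 ± 0.448 to 4.03 ± 0.859 CPM, and GRAMD1B with -0.28 ± 0.06. LIPA stood at 2527 ± 209 CPM in Biowire CM+FB+MF macrophages, and macrophage markers were higher in the same cardiomyocyte libraries. Their part in the rise of LIPA was not tested.

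Of 12 measured genes of fatty acid elongation and lipogenesis, 1 rose and 5 fell in CM+FB+MF macrophages against MF, where 37.6% of all genes were called. Their log2 changes in this comparison ran from -3.35 to 4.59. The genes named for it are the called ones with the smallest p, and the gene that rose is not among them. ELOVL5, an elongase of polyunsaturated fatty acids, fell, with a change of -0.97 ± 0.12 (adjusted p = 2.24e-05), LPIN1, a phosphatidate phosphatase, with -1.07 ± 0.13 (adjusted p = 2.96e-05) and the elongase ELOVL7 with -3.35 ± 0.64 (adjusted p = 0.000967), the last from 5.17 ± 0.779 to 0.513 ± 0.552 CPM. HSD17B12, a reductase of the elongation cycle, was the 1 gene that rose with fibroblasts, by 0.60 ± 0.12 (adjusted p = 0.00971). In cardiomyocytes 0 of 11 were called in this list by edgeR. Of 10 genes of the isoprenoid branches, which lead to ubiquinone, dolichol and prenylated proteins, 0 were called with fibroblasts and 3 fell with both cell types (37.6% of all genes were called there): the dolichol synthase subunit DHDDS (-0.51 ± 0.12), the farnesyltransferase subunit FNTB (-1.72 ± 0.50) and the ubiquinone synthase subunit PDSS2 (-0.69 ± 0.21). In cardiomyocytes 0 of these 10 were called. The digested comparisons called 0 genes of all 4 lists.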

How the data were processed

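RNA was sequenced from 26 libraries of sorted macrophages and cardiomyocytes. The raw counts per gene were deposited by the authors in 3 tables. STAR 2.7.9a, HTSeq 0.11.0, DESeq2, R 4.3.2 and the build hg19 are listed per the submitters' processing notes; the annotation, and whether reads were counted by strand, are not given in the sources used here. Normalized tables, deposited as well, were left aside. For cardiomyocytes, 28 gene names are written as dates, none of them a gene named here.

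The counts were tested with edgeR 4.0.16 (R 4.3.3; limma 3.58.1 was loaded with it): filterByExpr, TMM, a quasi-likelihood F test, two-sided, Benjamini-Hochberg threshold 0.05. All groups of a table entered its fit together. Interactions and Biowire minus digested used 18 libraries and the 17919 gene names shared by both macrophage tables. The SE is the absolute log2 change divided by the square root of F. The members and lists were chosen with earlier results of these data known. The 4 sensor genes are always described, and in each role group up to 4 called members with the smallest p in each direction are given with the value in every library. Overlaps came from GENCODE v29 and promoters from RefSeq (GRCh38.p14), read with Python 3.11.15; scipy 1.17.1 and matplotlib 3.10.9 gave intervals, correlations and plots.

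Counts of replicates differed by more than sampling noise, with chi-square values of 2.39 to 37.6 for each degree of freedom. Replicate numbers come from the labels and the column names. Deviations of same-numbered libraries from their group means correlated at 0.257, 0.113 and 0.115 between Biowire CM+FB+MF and MF. Differently numbered libraries of these groups reached 0.155, so these values do not settle whether the numbers mark pairs. The squalene and sterol enzyme sums fell in the order of replicates 1, 2 and 3 in each Biowire group. They were 865, 719 and 648 CPM in MF, 530.1, 482 and 471 CPM in FB+MF and 466, 417 and 399 CPM in CM+FB+MF. The mevalonate enzymes did so only in MF (349, 303 and 267 CPM). Biowire pairs with replicate 1 had chi-square values of 17.0 to 30.2, and the other Biowire pairs 5.45 to 9.21. The main fit holds no replicate term, and a fit with one is given below. Over all same-numbered pairs the range was -0.112 to 0.257 in Biowires, -0.334 to 0.497 in digested controls and -0.376 to 0.431 in cardiomyocytes. The alternatives were no filter on low counts, RLE size factors, DESeq2 1.42.0, only the compared groups, a replicate block and each library left out. The edgeR fit was also run on counts simulated from its own estimates of spread, with no effect shared by same-numbered libraries. The rates of that run are not given here, so nothing about the results is read from it.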

Additional observations from a re-analysis of the deposited data

Results flagged for a closer look

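In cardiomyocytes, 68 sets of 4 libraries, 1 for each gene and group, were checked for a library far from the rest. The check picked out 1: MVK, the mevalonate kinase, measured 55.3 CPM in CM+FB replicate 1, while the other 3 libraries lay close together between 51.1 and 51.7 CPM. Chance picks out about 1 in 20 such sets.

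The other results are genes whose change between cell combinations differed between Biowire and digested macrophages by the interaction test (edgeR, adjusted p under 0.05). All values are differences of log2 changes, Biowire minus digested. For FB+MF minus MF they were -0.70 for HMGCS1, -0.69 for CYP51A1 and -1.13 for DHCR7. HMGCS1 lost this call without Biowire FB+MF replicate 2 (adjusted p = 0.0559) or digested MF replicate 3 (0.0553). CYP51A1 lost this call in the fit of the compared groups alone (adjusted p = 0.0586) and without each of 9 libraries (up to 0.113, without Biowire MF replicate 1).

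For CM+FB+MF minus MF, the mevalonate enzymes gave -1.47 for ACAT2, -0.46 for HMGCS1, -0.38 for FDPS and -0.94 for GGPS1. The squalene and sterol enzymes gave -0.75 for FDFT1, -1.04 for LSS, -1.43 for CYP51A1, 1.03 for LBR, -0.76 for MSMO1, -0.80 for SC5D and -1.43 for DHCR7. The sensor and transport genes gave -1.36 for INSIG1, -0.73 for SREBF2, -0.92 for STARD4 and -0.66 for TMEM97. The fatty acid enzymes gave -1.31 for FADS1, -1.35 for FADS2, -1.003 for FASN, -0.66 for ACACA, -2.28 for ELOVL6 and -0.72 for ACSS2. GGPS1 and TMEM97 were called here and not within Biowires, where their adjusted p-values were 0.0894 and 0.0616 by edgeR. Both sides entered the value of GGPS1. Its mean went from 16.3 CPM in MF to 11.2 CPM in CM+FB+MF Biowires, and from 9.02 to 12.1 CPM in the controls, where it was not called. TMEM97 lost its call without each of 8 libraries (0.0526 to 0.101, the highest without Biowire MF replicate 1). HMGCS1 lost its call with RLE size factors (adjusted p = 0.0538), with only the compared groups (0.0595) and without each of 9 libraries (0.0627 to 0.127). FDPS lost its call with RLE size factors (0.0519), without the filter (0.0521), with only the compared groups (0.0758) and without each of 9 libraries (0.0517 to 0.103). MSMO1 lost its call without each of 5 libraries (0.0603 to 0.118) and ELOVL6 without each of 4 (0.0501 to 0.0882).

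For CM+FB+MF minus FB+MF the values were -1.14 for ACAT2, -0.74 for CYP51A1, 0.91 for LBR, -0.80 for INSIG1, -1.40 for FADS1, -0.99 for FADS2, -0.57 for ACACA and -0.43 for ACSS2. FADS2 lost its call by DESeq2 (adjusted p = 0.0656) and without each of 8 libraries (0.0513 to 0.0995), and ACACA without each of 4 (0.0504 to 0.0565).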

How the results depend on the processing

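Over the alternatives, 2387 values of the genes were recomputed for 197 results. Of these, 140 lost their call, for 30 results: 127 with a library left out, 6 with only the compared groups in the fit, 3 with RLE size factors, 2 by DESeq2 and 2 without the filter on low counts. Another 6 of these values gained a call, all of them values of INSIG1 or SCAP. A further 12 changed sign, all 12 of them values of INSIG2 or SCAP that were not called. The 197 results were those called by edgeR, plus some uncalled values of the sensor genes. Other uncalled genes could not add a gain here, so gains and losses are not compared. Over the whole gene list, DESeq2 gave 7 gained and 2 lost calls, and no filter gave 4 and 2. Only the compared groups gave 4 and 6, the replicate block 6 and 0, and RLE size factors 0 and 3. Outside the fits that left out a library, every count of called genes stayed within 1.5 times its value.

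With a library left out, the count in Biowire FB+MF minus MF ranged from 0 to 8, and that of the interaction for FB+MF minus MF from 1 to 5. The cause was not tested. INSIG2 ranged from -0.095 to 0.087 in FB+MF minus MF, from -0.073 to 0.14 in CM+FB+MF minus MF, from -0.055 to 0.13 in CM+FB+MF minus FB+MF and from -0.031 to 0.16 in cardiomyocytes. SCAP ranged from -0.13 to 0.032 in FB+MF minus MF. Without the filter INSIG2 gave -0.022 in Biowire CM+FB+MF minus FB+MF. With the looser element, the share of genes with a promoter match went from 3.33% to 16.7%.

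With the replicate block, 9, 21 and 11 genes were called in the 3 Biowire comparisons, 0, 0 and 0 in the digested ones, 27 in cardiomyocytes, 4, 21 and 9 in the interactions and 30, 29 and 33 in Biowire minus digested. The share of all genes called with the block was not taken, so a higher count is not read as particular to these genes. With the block 6 calls were gained and 0 lost over the 34 genes: INSIG1 (adjusted p = 0.00449) and FASN (0.0386) in FB+MF minus MF, SQLE (0.0238) in CM+FB+MF minus MF, FASN (0.00506) in CM+FB+MF minus FB+MF, and the interactions of SREBF2 for FB+MF minus MF (0.0267) and SCAP for CM+FB+MF minus FB+MF (0.0424).

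Groups held 3 or 4 libraries, and a value that missed the threshold does not show that the groups were alike.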
